A study of Bos indicus with 12 samples.

Results

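The *EBF3* region is a stretch of distal chromosome 26 of the bovine genome (ARS-UCD1.2, positions 48300000 to 49500000) around the start site of *EBF3*. It was chosen because it holds 4 cytosines (DMC87, DMC88, DMC89 and DMC90) and 1 window of 100 bp (DMR40) that the study had paired with *EBF3*. The study had called these sites differentially methylated between Tough and Tender animals. The sites were therefore selected on measured values of the same contrast, and the values of that contrast are given here as a description. All cytosines of the region were taken, 899 of the 635469 in the table, and they fell into 259 of the 193249 covered windows of 100 bp.

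DNA methylation was measured by reduced representation bisulfite sequencing (RRBS) in *longissimus thoracis* muscle of 12 Nelore (*Bos indicus*) steers, slaughtered at 25 months of age on average, with 1 library per animal. The Tough group (animals 1 to 6) had the higher shear force, the force needed to cut the meat, and so the lower tenderness. The Tender group (animals 7 to 12) had the lower shear force, and no agent or genetic modification was part of the design. The animals were the extremes of a larger population, and a muscle sample holds all the cell types of the tissue, so a change in the cells present and a change within cells cannot be told apart. RRBS covers cytosines close to where the enzyme MspI cuts, and bisulfite turns unmethylated cytosines into thymine. The median coverage of a cytosine of the region was between 25 and 33 scaled reads per animal, and its lowest value was 10. At 50% methylation, the lowest median of reads before scaling leaves a binomial standard error of 11.2%, which covers counting error only.

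*EBF3* encodes a transcription factor of the early B cell factor family, proteins that bind DNA as dimers and act in the development of lymphocytes, neurons, fat cells and bone marrow stroma. In mouse muscle, EBF3 is known to act together with MyoD on the gene of the calcium pump that returns calcium to the sarcoplasmic reticulum, which is needed for muscle relaxation. Promoters rich in CpGs are as a rule unmethylated whether or not the gene is expressed, whereas CpGs in the intervals between them are mostly methylated. In RefSeq gene order, taken from another cattle assembly, *EBF3* lies between *MGMT*, a DNA repair gene whose enzyme removes alkyl groups from guanine, and *C26H10orf143*, followed by *GLRX3*, a glutaredoxin gene. The gene is read from the minus strand, so that lower positions are downstream of its start site. The start site used here, position 49271964, is the one implied by the annotated distances of DMC89 and DMC90. The distance annotated for DMC88 implies a site 2 bp away.

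Methylation was low at the covered cytosines nearest the *EBF3* start site on its downstream side and rose with distance on that side. No cytosine within 500 bp of the start site was covered. Within 1 kb of the start site, 46 cytosines had a mean methylation of 3.0% ± 0.89 (SD over 12 animals), with 1.62% in the lowest and 4.39% in the highest animal. Of these, 7 lay upstream, in a window with a mean of 13.6%, so the mean rests mostly on the downstream side. From 1 to 10 kb downstream, 163 cytosines had 3.47% ± 0.85. From 10 to 100 kb downstream the mean of 108 cytosines was 58.4% ± 1.93, and beyond 100 kb the mean of 290 cytosines reached 76.0% ± 0.85. On the upstream side, 124 cytosines between 1 and 10 kb had 23.8% ± 2.58 and 168 cytosines farther away had 30.6% ± 0.62.

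Neighbouring zones were compared within each animal with an exact two-sided sign-flip permutation test over 12 animals, adjusted over the 5 pairs by the Benjamini-Hochberg method. The promoter, meaning 1 kb on either side of the start site, was lower than the zone from 1 to 10 kb upstream, with a difference of −20.8 ± 1.87 percentage points and the same direction in 12 of 12 animals (p = 0.000488, adjusted p = 0.00061, exact permutation test; 0.000488 is the smallest p this design allows). The zone from 10 to 100 kb downstream exceeded the one from 1 to 10 kb downstream by 54.9 ± 1.43, also in 12 of 12 animals and with the same p by the exact permutation test. The step from there to beyond 100 kb downstream was 17.6 ± 1.96, again higher in 12 of 12 animals. The zone from 1 to 10 kb upstream minus the one beyond it gave −6.78 ± 2.98, lower in all 12 animals, and both of these steps had the same p by the exact permutation test. That difference is one of means: the median cytosine was at 13.8% from 1 to 10 kb upstream and at 2.23% beyond 10 kb, where 100 of the 168 cytosines were under 5% and 28 over 90%. When 20 reads were required in every animal, the step beyond 100 kb downstream was 29.8 and the one between the upstream zones −14.6. The promoter and the first zone downstream differed by 0.47 ± 1.29, with the downstream zone higher in 7 of 12 animals (adjusted p = 0.231, exact permutation test). Under that minimum of 20 reads, this last difference changed its direction, to −1.36 (p = 0.00586, exact permutation test), and with the strands merged it was 1.12 (p = 0.00928, exact permutation test), so its sign is not settled. The zones differ in the numbers of cytosines that RRBS reached, and they are unweighted means over those cytosines.

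**Figure D1:**
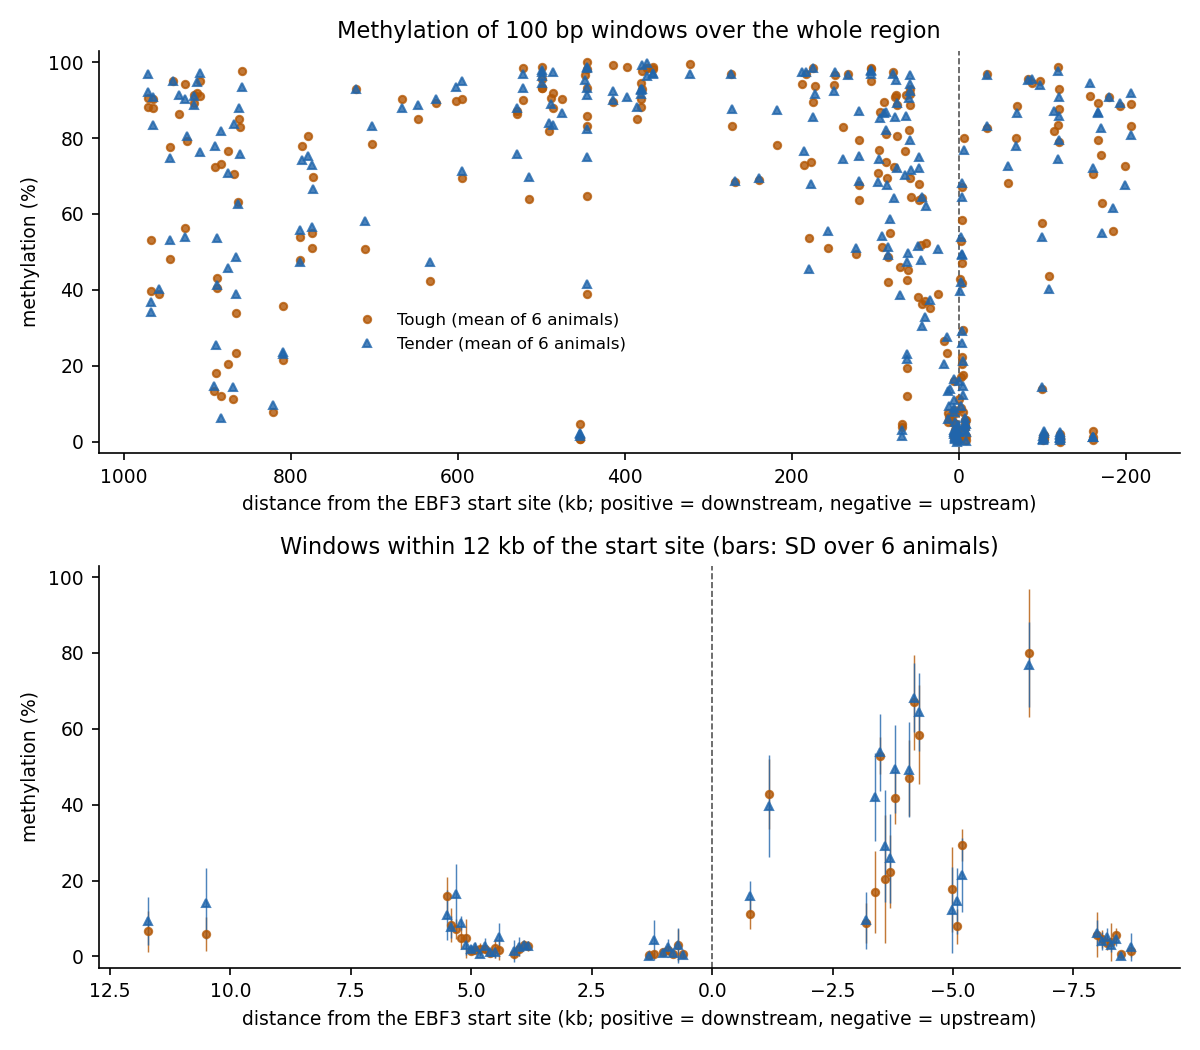
Mean methylation (%) of each 100 bp window in Tough (circles) and Tender (triangles) animals against the distance from the *EBF3* start site in kb, over the whole region (upper panel) and within 12 kb (lower panel, bars are the SD over 6 animals; the dashed line is the start site). The covered windows from 0.564 to 5.26 kb downstream have means of at most 6.89%, and those from 3 to 6 kb upstream lie between 9.16% and 67.6%.

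Several runs of windows with low methylation stood out along the region, a run being at least 5 consecutive covered windows with a mean under 10%. The longest covered 177 cytosines in 20 windows from 0.564 to 5.26 kb downstream of the start site, with a mean of 2.19% and windows between 0.24% and 6.89%. Its animals ranged from 1.15% to 3.11%. No window was covered between those centred 1.31 and 3.81 kb downstream, so the level in that part of the run is not known. No covered window held the start site itself. The nearest window downstream, centred 613.5 bp away with 12 cytosines, had 0.56% ± 0.75, and the nearest upstream, centred 786.5 bp away with 7 cytosines, had 13.6% ± 4.58. The rise on the upstream side was steep, since the next covered window, with its centre 1186.5 bp upstream, had 41.3% ± 11.1.

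The other runs lay upstream of the gene. The run from 7.94 to 8.74 kb upstream held 46 cytosines with a mean of 3.64%. The nearest covered windows on either side, centred 6.59 and 34.5 kb upstream, had 78.4% and 83.0%. No window was covered between the far edge of the run and the latter, so where the run ends is not known. Another at 101 to 102 kb upstream held 34 cytosines with a mean of 1.14%, and a further one at 121 to 122 kb upstream held 51 cytosines with a mean of 1.09%. These runs are low in every animal, with no animal above 5.71% in any of the upstream runs. In all, 56 of the 259 windows had a mean under 10%, and 41 of them belonged to the runs. Whether these runs are CpG islands or lie in exons was not analysed here.

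Compared with the table as a whole, a smaller share of the cytosines of the region was unmethylated and a larger share methylated. Means under 5% were found for 35.0% of its cytosines against 52.4% of all cytosines, means from 20 to 80% for 23.7% against 17.8%, and means over 90% for 21.0% against 13.6%. The mean of the region exceeded that of the table in every animal, by 11.1 to 12.4. These shares depend on where RRBS reached and are a description.

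**Figure D2:**
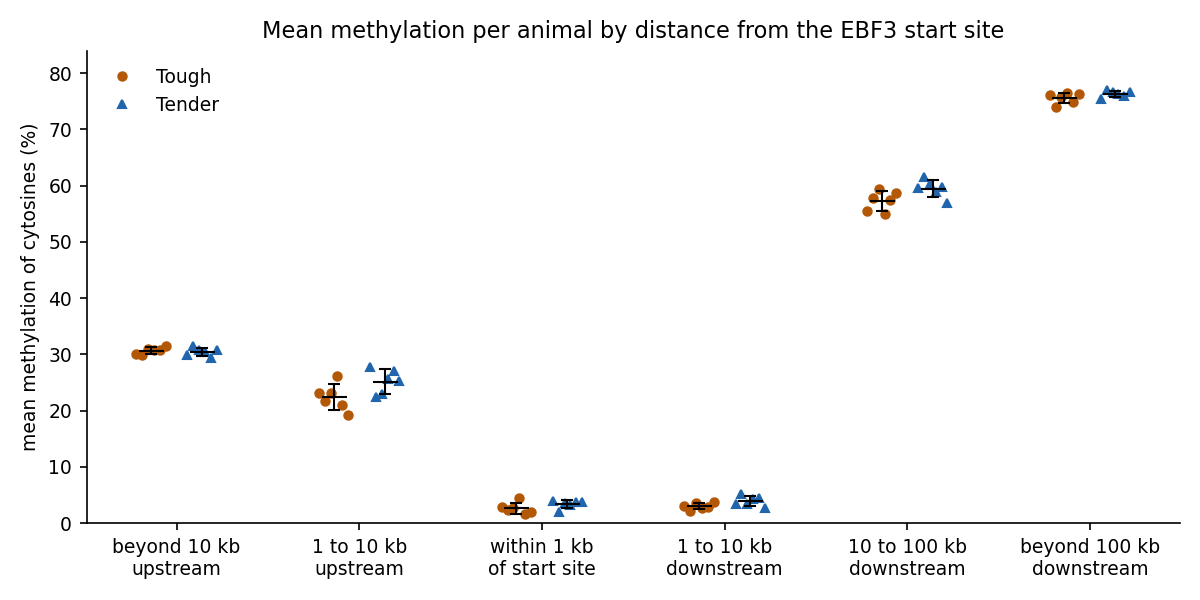
Mean methylation (%) of the cytosines of each zone, by distance from the *EBF3* start site, for each Tough (circles) and Tender (triangles) animal, with the mean and SD of each group of 6. The zones within 1 kb and from 1 to 10 kb downstream lie under 6% in all animals, and the groups overlap in every zone.

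Between 3 and 6 kb upstream of the start site, 12 windows with 72 cytosines had intermediate methylation, with means from 9.16% to 67.6% and SDs over the 12 animals from 6.16 to 16.8. This is the stretch that holds DMR40, DMC89 and DMC90. The DMR40 window, positions 49275301 to 49275400, lies 3386.5 bp upstream of the start site at its centre. In the study's annotation, DMC89 and DMC90 are intergenic, lie in a CpG island and have *EBF3* as their closest gene. From histone marks and open chromatin in *Bos taurus*, the study also places them and DMR40 in a promoter region. It was classed as strongly active in muscle and as a bivalent or poised start site in fat tissue.

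In the DMR40 window, Tough animals had 1.52%, 15.6% and 29.95% methylation as the lowest, median and highest value, and Tender animals had 25.9%, 42.3% and 59.7%. The groups overlapped, because Tender 10 (25.9%) lay below Tough 4 (27.8%) and Tough 5 (29.95%). The means were 17.0% ± 10.7 in Tough and 42.0% ± 11.6 in Tender animals (SD, n = 6 each), and the pooled reads differed by 25.4 (Tender minus Tough; all differences are in percentage points). Without any regard to group, the SD over the 12 animals was 16.8, the 13th largest of the 259 windows and larger than that of 85.0% of the windows of the table with a mean of 20 to 80%.

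The 9 cytosines of DMR40 are all on the minus strand and span 38 bp, less than the read length of 50 bp, so that the same reads are counted again at each of them. Each cytosine had 11 to 35 reads per animal before scaling. All 9 had higher means in Tender animals, with pooled differences between 20.9 and 29.0, Tough means between 11.8% and 23.5% and Tender means between 31.3% and 48.6%. Tough 6 was at 0 at 8 of the 9, where a median of 12 reads allows a level of up to 25% (3 reads of the total). Tough 3 was at 0 at 4 of the 9. The overdispersion factor, the spread between animals relative to binomial counting, was 13.0 for the window and 2.15 for the median cytosine. Since the window counts the same reads several times, its factor is not on the same footing as that of a cytosine.

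At DMC89 (position 49275319, minus strand, 3355 bp upstream), Tough animals had 0, 20.4% and 31.4% as lowest, median and highest value and Tender animals 29.2%, 47.7% and 64.3%, with means of 19.2% ± 11.6 and 47.9% ± 11.6. At DMC90 (position 49275340, minus strand, 3376 bp upstream), the corresponding values were 14.3%, 24.6% and 33.3% in Tough and 33.3%, 48.5% and 64.3% in Tender animals, with means of 23.5% ± 8.40 and 48.6% ± 11.3. At DMC90 the highest Tough and the lowest Tender animal had the same value in scaled reads. Before scaling, Tough 5 had 34.8% there and Tender 10 had 35%, so the groups then came close without overlap. At DMC89 Tender 10 lay below Tough 1 and Tough 4. The opposite strand was not covered at either CpG. Reads before scaling numbered 12 to 35 per animal at both, and with 12 reads, the 95% Wilson interval of Tough 6 ran from 0 to 24.2% at DMC89.

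The window next to DMR40 on the upstream side, positions 49275401 to 49275500, showed no such difference. Its 10 cytosines, also all on the minus strand and starting 71 bp beyond the last of DMR40, had 46.8%, 52.4% and 61.6% in Tough and 35.5%, 55.3% and 65.8% in Tender animals. The means were 52.9% ± 4.93 and 53.8% ± 10.1, a pooled difference of 1.56. Tender 8, the highest animal in DMR40, was the lowest animal here. Over the other 11 windows from 3 to 6 kb upstream, pooled differences ranged from −7.32 to 11.8, with 9 windows higher in Tender and 2 in Tough and a median of 2.79.

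**Figure D3:**
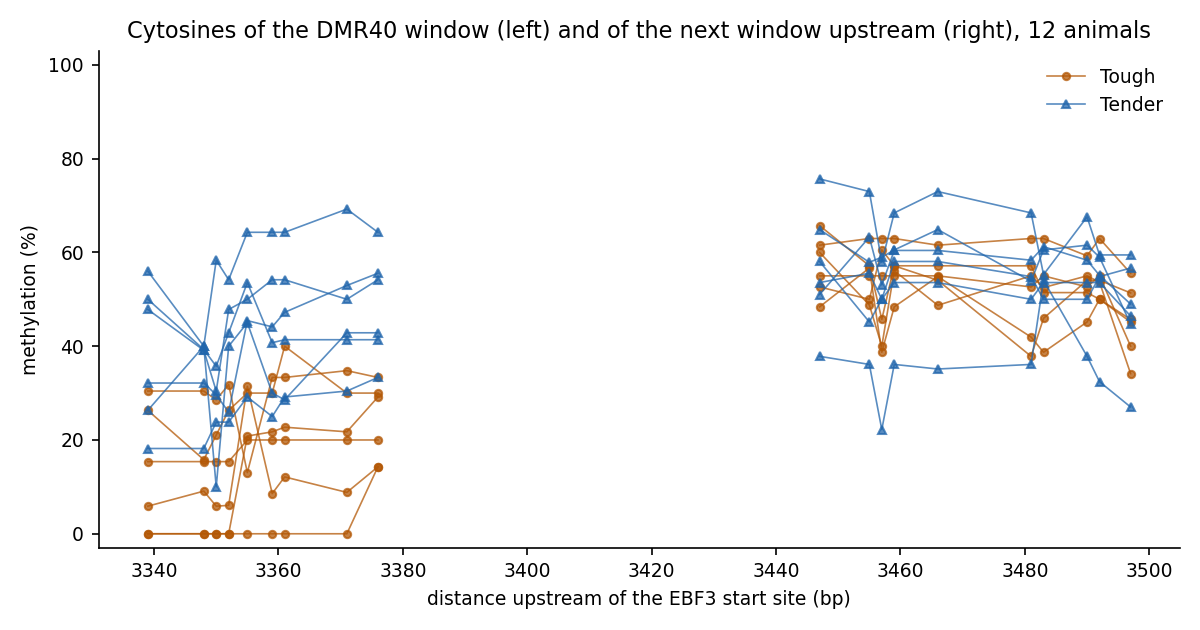
Methylation (%) of each cytosine of the DMR40 window (9 cytosines) and of the next window upstream (10 cytosines) against the distance upstream of the *EBF3* start site in bp, with 1 line per animal (Tough circles, Tender triangles). Tough animals lie mostly below Tender animals on the left, and the lines of the groups mix on the right, where the lowest line is Tender 8.

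Far downstream of *EBF3*, DMC87 and DMC88 were both single cytosines. DMC88 (position 49152976, plus strand, 118988 bp downstream, annotated as intergenic in a CpG shore) had 41.7%, 43.4% and 82.6% in Tough and 72.0%, 82.9% and 92.0% in Tender animals. Tough 4, at 82.6%, stood apart from its group and lay among the Tender animals. The means were 51.1% ± 16.1 and 82.5% ± 8.18, a pooled difference of 32.8. Of the covered cytosines within 50 bp, the one 14 bp away differed by 13.5 and the one 37 bp away by −0.28.

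DMC87 (position 48397310, plus strand) is 874654 bp downstream of the *EBF3* start site, and *MGMT* is the closest gene in the study's annotation. Tough animals had 0, 0 and 4.55% as lowest, median and highest value, whereas Tender animals had 0, 56.7% and 74.2%. Tender 11 was at 0, with 39 reads, which allow a level of up to 7.69%, and so lay within the Tough group. The other 5 Tender animals lay between 41.9% and 74.2%, and the pooled difference was 47.8. The overdispersion factor of 6.28 was the largest of the 4 cytosines.

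The cytosines next to DMC87 did not share its pattern. The 3 that were covered within 50 bp, all on the plus strand, differed by −11.4, −4.76 and −1.93. The 2 at 11 and 13 bp had means between 81.7% and 86.2% in both groups. The opposite strand of DMC87 was not covered, and whether any of the animals carries a sequence change at this position was not tested.

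**Figure D4:**
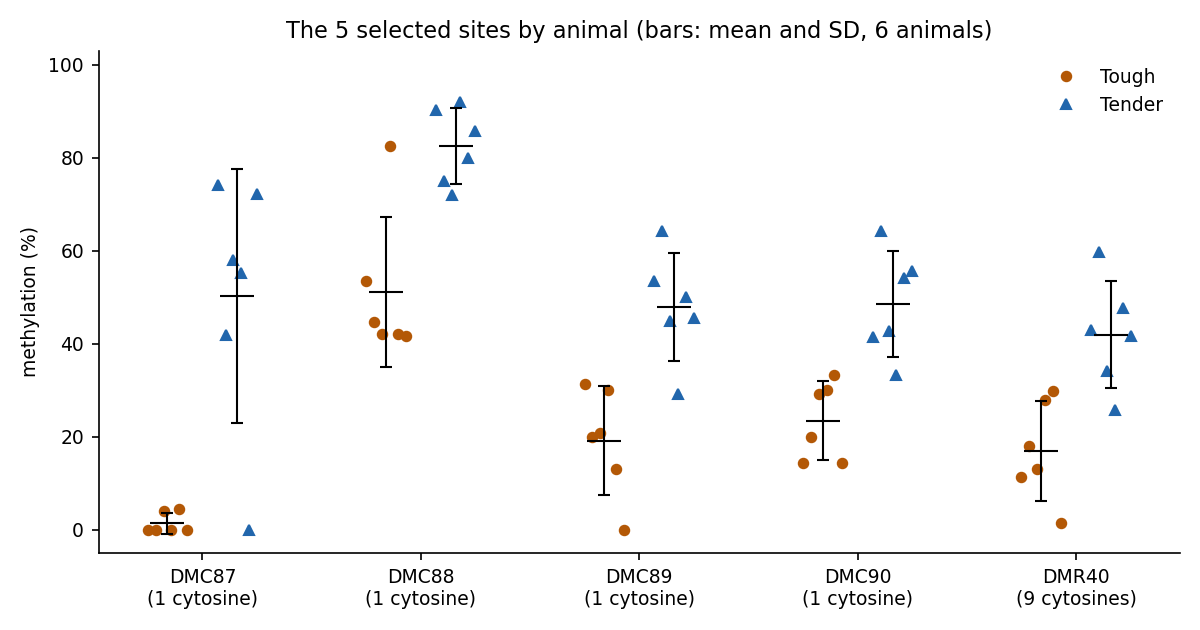
Methylation (%) of DMC87, DMC88, DMC89, DMC90 and the DMR40 window in each Tough (circles) and Tender (triangles) animal, with the mean and SD of each group of 6. In DMC87 Tender 11 lies at 0 with the Tough animals, and in DMC88 Tough 4 lies at 82.6% among the Tender animals.

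Under a model like that of the study (a logistic regression of the reads on group with an overdispersion correction and a chi-square test), calls needed a Benjamini-Hochberg adjusted p under 0.05, in place of the study's q-value, and a pooled difference above 25. By these criteria, 3 of the 899 cytosines of the region were called, or 0.334%, beside 0.0190% of all cytosines. They were DMC87, DMC88 and DMC90. DMC89 narrowly missed, with an adjusted p of 0.0511 by this adjustment, which can differ from a q-value. Of the windows, 1 of 259 was called, the DMR40 window, beside 0.0217% of all windows. The region was chosen for these very calls, so nothing is read from these shares. Just outside the criterion of 25 were the window of DMC87, with a pooled difference of 24.1, and that of DMC88, with 23.2. The window of DMC88 also missed the other criterion, with an adjusted p of 0.0537 by the chi-square test. Just inside the criterion of 25 was DMR40, with 25.4.

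The calls depend on the test. With an F-test in place of the chi-square test, or with limma on log2 ratios, 0 cytosines and 0 windows were called in the region and in the whole table, while an unadjusted p under 0.05 was found at 63 and 51 cytosines and at 17 and 13 windows of the region, respectively. With the F-test these were 7.01% of its cytosines and 6.56% of its windows, beside 4.93% and 5.62% in the table. With limma they were 5.67% and 5.02%, beside 4.91% and 5.04%. The cytosines and windows of the region include the sites it was chosen for, and those of DMR40 share their reads, so nothing is read from these shares. When each animal was left out in turn, DMC87 and DMC88 passed in 12 of 12 fits, DMC90 in 6, DMR40 in 4 and DMC89 in 2. The DMR40 window stayed called only without Tough 4, Tough 5, Tender 9 or Tender 10, with pooled differences of 21.8 to 28.3 over the 12 fits. DMC90 was no longer called without Tough 1, 2 or 6 or Tender 8, 11 or 12, and DMC89 was called without Tough 1 or Tender 10.

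Bisulfite conversion, read from the unmethylated spike-in, split the libraries into a lower group (3 Tough and 4 Tender) and a higher group (3 Tough and 2 Tender). The difference kept its direction in both groups at all the named sites, but its size varied. The mean difference at DMC87 was 63.6 in the lower and 19.5 in the higher group, where Tender 11 is 1 of the 2 Tender animals. At DMC88 the values were 25.6 and 34.7, at DMC89 15.9 and 46.1, at DMC90 18.8 and 36.7, and in DMR40 18.6 and 37.2. The part of conversion in these differences was not tested beyond its use as a covariate, with which 4 cytosines and 1 window of the region were called, beside 146 cytosines (0.0230%) and 47 windows (0.0243%) of the table.

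The mean over the 899 cytosines was 40.8% ± 0.57 in Tough animals (39.9% to 41.3%) and 41.8% ± 0.26 in Tender animals (41.5% to 42.2%), a difference of 1.06 with no overlap of the groups. The mean of the whole table was also higher in Tender animals, by 0.40 (29.5% ± 0.50 in Tough and 29.9% ± 0.21 in Tender). After each animal's table mean was subtracted, the region differed by 0.66 and the groups overlapped, with 11.1 to 11.5 in Tough and 11.4 to 12.4 in Tender animals. Without the 11 cytosines of the named sites, the difference was 0.73 and the groups overlapped, with 40.2% to 41.7% in Tough and 41.4% to 42.0% in Tender animals, and 0.33 of it was left after the table mean was subtracted. Before that subtraction it was 0.29 in the lower and 1.25 in the higher conversion group. At single cytosines, the median difference was 0.04, and 817 of the 899 lay within 10.

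By zone, the largest group difference of the means, 2.77, was from 1 to 10 kb upstream. Tough animals had 19.2%, 22.4% and 26.2% there and Tender animals 22.4%, 25.4% and 27.8% as lowest, median and highest value. This zone holds the 9 cytosines of DMR40, for which the region was chosen, so its rank among the zones is not independent of that choice. The difference without them was not computed. The zone from 10 to 100 kb downstream, which holds no named site, differed by 2.16. From 10 to 100 kb downstream, the Tough values were 55.0%, 57.7% and 59.3%, and the Tender values 56.9%, 59.6% and 61.6%. In the promoter they were 1.62%, 2.45% and 4.39% against 2.07%, 3.62% and 3.89%. The groups overlapped in all 6 zones.

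Cytosines with large differences in either direction were few. Above 25, 7 cytosines were higher in Tender (0.779% of the region, 0.134% of the table) and 1 was higher in Tough animals (0.111% and 0.0910%). Of the 7, 5 belong to DMR40, and the others are DMC87 and DMC88. The cytosine higher in Tough animals, at position 48363243 on the plus strand, had 87.0% ± 21.5 in Tough and 61.4% ± 24.9 in Tender animals, and its overdispersion factor of 15.1 was above that of any named site.

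In scaled reads, Tough and Tender animals did not overlap at 3 cytosines of the region (0.334%), beside 0.0965% of all cytosines. None of the 5 named sites is among them. At position 49266694 on the minus strand, 5.27 kb downstream of the start site, Tough animals had 9.68%, 13.1% and 17.6% and Tender animals 20.6%, 28.1% and 65.4%. This cytosine lies at the edge of the long unmethylated run, in the window just outside it, which is described further on as the one most like DMR40. At position 49306468 on the plus strand, 34.5 kb upstream, Tough animals had 37.9%, 56.8% and 63.6% and Tender animals 68.2%, 71.6% and 79.1%. At position 49203994 on the minus strand, 68.0 kb downstream, the direction was the opposite, with Tough animals at 3.03%, 6.59% and 17.6% and all Tender animals at 0. No window of the region separated the groups without overlap, beside 0.177% of all windows. One further cytosine, at position 48891718, had an adjusted p under 0.05 in the model, with 92.4% ± 6.91 in Tough and 100% in all Tender animals, a pooled difference of 7.19. Its overdispersion factor was 0.87, so this p from the chi-square test rests on read counting only.

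Of the windows of the region with at least 3 cytosines and an SD of 5 or more (48 without DMR40), the one most like DMR40 over the 12 animals was the window at positions 49266601 to 49266700, 5313.5 bp downstream of the start site and so on the other side of it. Its Pearson r with DMR40 was 0.756 and its Spearman rho 0.692, and r was 0.689 without Tender 8 and Tough 6, the animals farthest from the median of DMR40. The 8 cytosines of this window had 2.40%, 8.63% and 9.26% in Tough and 7.81%, 14.9% and 31.3% in Tender animals, and the highest animal was again Tender 8. The following windows by r, at 48404101 (0.579) and 49223901 (0.494), fell to 0.213 and 0.294 without those animals. The neighbouring window upstream had an r of −0.187. Among 24708 such windows elsewhere in the table, the highest r were 0.924 on chromosome 21 (66490801 to 66490900), 0.923 on chromosome 19 (24569601 to 24569700) and 0.917 on chromosome 11 (98529301 to 98529400). These correlations are over 12 points that share their library and group, were picked as the highest of many, and are given as a description.

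Over all 12 animals, with any group difference included, the spread was largest at windows that hold a single cytosine. The SD over the 12 animals was largest, at 31.4, at position 48826705, where animals ranged from 4.17% (Tough 1) to 100%, while the cytosines 30 and 42 bp away had SDs of 7.84 and 10.8. The next 4 windows by SD, with 25.7, 22.0, 21.5 and 21.0, also had 1 cytosine each. In windows with a mean of 20 to 80%, the median SD was 11.4 in the region (96 windows) and 11.7 in the table. For windows under 5%, the medians were 1.59 and 1.43.

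**Figure D5:**
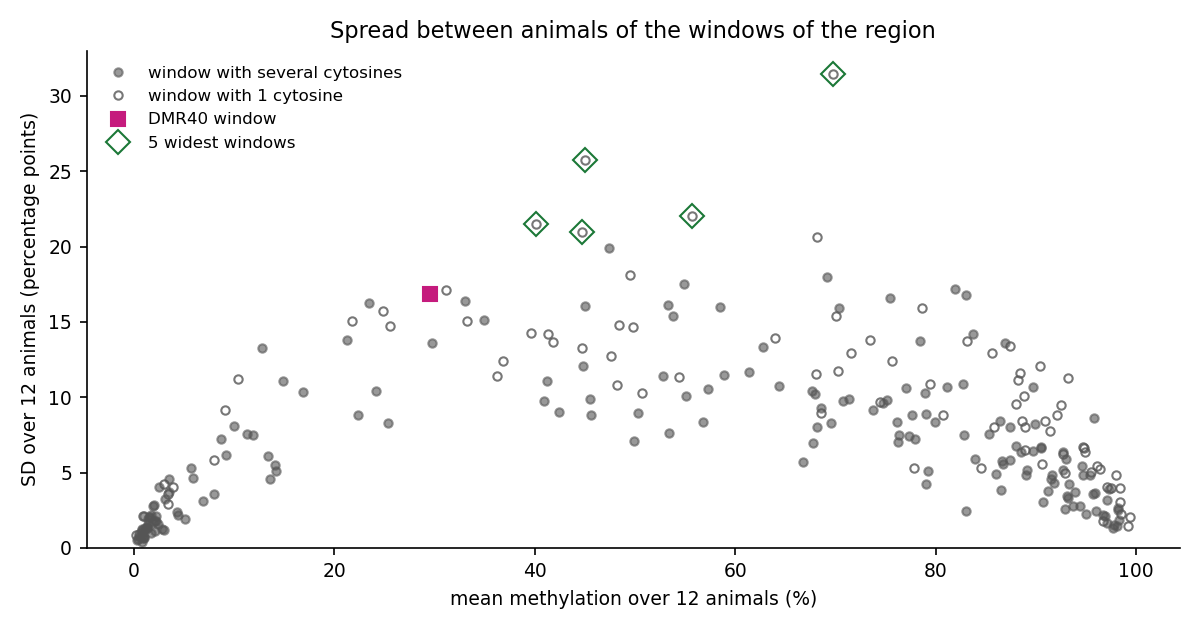
SD over the 12 animals (percentage points) of each 100 bp window of the region against its mean methylation (%), with windows of 1 cytosine as open circles. The 5 widest windows, at SDs of 21.0 to 31.4, hold 1 cytosine each. The DMR40 window (square) lies at a mean of 29.5% and an SD of 16.8, which includes the group difference it was selected for.

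Both strands were covered at 131 CpGs of the region. Their means over the 12 animals differed by a median of 1.18, and 117 of the 131 pairs lay within 5 of each other. The plus strand was higher by 0.58 ± 0.60 on average, in 9 of 12 animals (p = 0.00977, two-sided exact sign-flip permutation test), the mean level being 20.9% for the plus and 20.3% for the minus strand. The strand difference was 0.59 in the lower and 0.57 in the higher conversion group. Only 2 pairs were more than 10 apart, the widest at position 48462796, where the plus strand had 37.9% and the minus strand 24.6%. None of the 4 named cytosines is among the pairs.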

How the data were processed

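RRBS of *longissimus thoracis* was available for 6 Tough and 6 Tender animals, grouped by the shear force of the labels. According to the submitters' notes and the methods, the authors used Trim Galore 0.4.1 for trimming and Bismark 0.23.0 for alignment (ARS-UCD1.2). In methylKit 1.8.1 they required 10 reads per cytosine, dropped coverage beyond the 99.9th percentile, scaled coverage between animals and retained cytosines found in all 12. Each deposited value is a score: reads that the authors multiplied by a factor of 1 to 1.27 per animal and rounded. The plan assumed counts. The planned model was kept, and whole reads were recovered for all 7625628 values (0 left) as an alternative. Strands are separate rows.

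Percent methylation is methylated over all reads. The model was fitted to all cytosines and windows (at least 10 reads per animal) with Benjamini-Hochberg adjustment where the study used q-values, in Python 3.11.15 with numpy 2.4.6 and scipy 1.17.1, and tested on simulated data. limma 3.58.1 used log2 ratios with a pseudocount of 1. Zones were set by distance, since no annotation of the build was used. For the same reason gene bodies, sequences and the promoters of other genes were not analysed here. Shear force was measured after 7 days of aging per the labels and 14 per the methods, which selected animals by breeding value for shear force. Named sites were the 5 sites paired with *EBF3*, cytosines within 50 bp, other called sites, the 5 widest windows, the windows nearest the start site, and the 3 windows in and outside the region most like DMR40. Cytosines without overlap and those above 25 were added. The members and lists were chosen with earlier results of these data known. Nothing in the labels pairs animals. The p-values of zones and strands come from differences within each of these animals. Those of the model weigh the group difference against binomial counting of reads, enlarged by the overdispersion factor where that exceeds 1. The chi-square test takes this factor as known, whereas the F-test allows for its estimation from these animals.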

Additional observations from a re-analysis of the deposited data

Results flagged for a closer look

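Of 42 sets of 6 animals (each value in each group), 3 held an animal whose gap to the nearest of the others exceeded Dixon's limit, where chance alone flags about 1 set in 20. At DMC88, Tough 4 had 82.6% methylation and the next Tough animal 53.6%, so that this animal lay among the Tender animals. At the cytosine at position 49266694, 5.27 kb downstream of the *EBF3* start site, Tender 8 had 65.4% and the next Tender animal 32.3%. In the window at 48304701, which holds 1 cytosine, Tough 5 was at 0 and the next Tough animal at 50.0%. The causes were not tested.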

How the results depend on the processing

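No paired analysis was possible because the groups share no replicate numbers. The main counts were 3 called cytosines and 1 called window of the region, beside 121 and 42 in the table. The F-test and limma gave 0 and 0, and no overdispersion correction 8 cytosines (1431 in the table). Reads before scaling gave 3 cytosines (91 in the table) and 1 window (35 in the table). At least 20 reads gave 1 cytosine (24 in the table). DMC88, DMC89 and DMC90 had fewer than 20 scaled reads in at least 1 animal, so they were not tested there. A difference above 10 gave 2 windows (303 in the table). Leaving out 1 animal gave 2 to 5 cytosines (128 to 196 in the table), with 5 without Tough 5 and without Tender 10. It gave 0 to 2 windows (41 to 81 in the table). There were 0 without Tough 1, 3 and 6 and Tender 7, 8 and 12, and 2 without Tough 4 and Tender 9. With at least 20 reads, the zone means were 45.8% beyond 10 kb upstream, 31.2% from 1 to 10 kb upstream, 4.13% in the promoter, 53.4% from 10 to 100 kb downstream and 83.2% beyond 100 kb downstream, and the zone from 1 to 10 kb downstream minus the promoter became −1.36. The steps between the upstream zones (−14.6) and beyond 100 kb downstream (29.8) kept their direction but grew by over 1.5 times. The zone from 1 to 10 kb downstream minus the promoter was 1.12 with strands merged, past the threshold. Beyond 10 kb upstream the mean was 34.6% with strands merged and 35.0% with pooled reads, which gave 77.7% beyond 100 kb downstream. The pooled difference of the higher conversion group was 16.9 at DMC87 and 46.4 at DMC89. Leaving out 1 animal gave pooled differences of 42.9 to 59.2 at DMC87, 30.5 to 37.9 at DMC88, 23.7 to 30.9 at DMC89, 22.6 to 28.7 at DMC90 and 21.8 to 28.3 in DMR40. Of the values under alternatives, 78 counted as unchanged, 17 as moved, 1 as reversed and 1 as newly past the threshold. With 1 animal left out, 230 counted as unchanged and 10 as moved. The unchanged values kept their direction and side of the threshold, moved by less than 1 SD or, for call counts, changed by at most 1.5 times. The steps of −14.6 and 29.8 are among the 78. Except where fewer cytosines or animals entered, the causes were not tested. A promoter of 500 bp on either side held no covered cytosine, so it gave no value. The promoters of other genes were not run. Coverage before scaling had a lowest median of 20 reads per animal, which limits single cytosines to wide intervals.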
